A study of Ovis aries with 5 samples.

Results

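Messenger RNA of 4 genes through which dendritic cells (DC) engage T cells was followed here in subsets of sheep skin lymph DC. CD80 and CD86 are the B7 ligands that bind CD28 and CTLA4 on T cells, CD40 is the receptor of the T cell ligand CD40LG, and ICAM1 is the adhesion ligand of the integrin pair ITGAL and ITGB2. They were represented by all non-control probes that the array files name for these genes, directly or through the transcript described. These were 6 of 15008 distinct probes, with 2 for CD86, 2 for CD40 and 1 each for CD80 and ICAM1, out of 825 genes that could be named on the array.

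DC take up antigen in the skin, travel through afferent lymph and present it to T cells in the node. A T cell needs the peptide signal together with a costimulatory signal, which CD80 and CD86 give through CD28, while CTLA4 binds the same ligands and restrains the cell. Binding of CD40LG to CD40 licenses a DC through NF-kB, and ICAM1 holds the T cell in contact with it. Maturing DC are known to raise all 4 at the surface.

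The tested cells were CD1b+CD26+ and CD1b+CD26- DC sorted from skin lymph, each from the same 2 sheep, 30066 and 10081, giving 2 arrays per subset. CD1b is a lipid antigen-presenting molecule and CD26 a surface peptidase. Amplified RNA of each subset carried Cy3, and every array shared 1 Cy5 RNA, that of total enriched DC of lymph drawn from different animals. The remaining array, the self-hybridisation, held the total DC RNA in both dyes and served as the control for dye effects. No treatment or genotype is named in the labels, and age and breed are not given in the sources used here. The sample labels name total lymph DC as the Cy5 RNA, but the protocol text on labelling mentions a cultured line instead. It is called total DC here, as in the sample labels. Since total DC came from other sheep, a difference of a subset from total DC cannot be told apart from a difference between animals.

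The median Cy3 signal was 204 to 307 units per array over a median local background of 36.5 to 39.0 units. Of the non-control spots, 80.8% to 89.2% per array stood well above background in that dye. Sheep 30066 and the self-hybridisation lay in 1 row of the slide and sheep 10081 in the other, so the sheep cannot be told apart from the rows. Both CD26+ arrays lay in slide column 4, both CD26- arrays in column 3 and the self-hybridisation in column 2. A difference between the subsets, or of a subset from total DC, therefore cannot be told apart from one between slide columns. Precision is limited throughout by how few arrays there are. For the cell label, 4 of 19 listed DC markers were among the named probes, and 3 of them (CD1B, CD1 and CD1D) were well above background in Cy3 on all 5 arrays. The sort marker CD26 was not analysed here.

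The probes are shown because each gene rests on 1 or 2 of them, each printed on 1 spot per array. Both CD86 probes and both CD40 probes are given for comparison of the letters behind paired values, and capitals mark a stop codon that closes an otherwise open forward frame.

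CD86 A_70_P030341: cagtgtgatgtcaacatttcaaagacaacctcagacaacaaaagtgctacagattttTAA

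CD86 A_70_P030342: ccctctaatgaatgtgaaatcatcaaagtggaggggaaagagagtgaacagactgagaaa

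CD40 A_70_P026641: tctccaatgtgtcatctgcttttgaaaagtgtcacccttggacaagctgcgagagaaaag

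CD40 A_70_P026642: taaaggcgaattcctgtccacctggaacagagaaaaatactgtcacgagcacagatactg

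ICAM1 A_70_P030136: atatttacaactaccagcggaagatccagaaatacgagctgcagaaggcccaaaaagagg

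CD80 A_70_P051391, last 30 bases, with the closing run of A in capitals: cctcacataaaatttgcttagtgtAAAAAA

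Each probe is 60 bases long. The 5 probes printed whole hold at least 1 forward frame that is free of stop codons, in CD86 A_70_P030341 up to its last codon. The CD80 probe has a stop codon in every forward frame and ends in 6 A, and its description names the transmembrane form of CD80. No other probe on the array shares a run of 20 bases with any of the 6. The G and C content was 45.0% in both CD40 probes and in ICAM1, 35.0% and 41.7% in the CD86 probes and 38.3% in CD80.

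All 6 probes were well above background in both dyes on all 5 arrays, none was saturated and none was an outlier spot, so all 6 passed the filter on dim probes. They were far apart in brightness above their own local background. The CD40 and ICAM1 spots stood at 282 to 771 times the local background in Cy3, and the CD86 spots at 40.5 to 149 times. CD80 stood at 1.80 to 10.6 times the background in Cy3 and at 2.14 to 2.69 times in Cy5, so its ratio rests on dim spots. Levels of different probes cannot be compared, and no length-scaled level exists for these arrays.

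**Figure D1:**
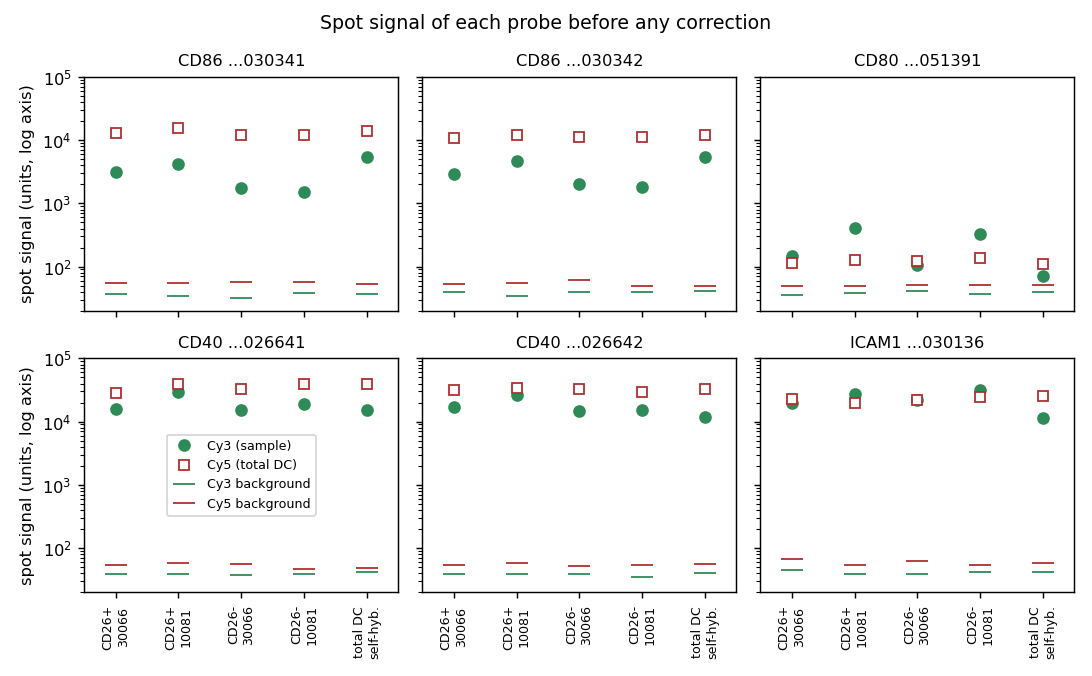
Spot signal in units (log axis) of each of the 6 probes on the 5 arrays, with filled circles for Cy3, open squares for Cy5 total DC and bars for the local background in each dye. The Cy5 squares of a probe stay level over the arrays, the CD86 circles are lowest on the CD26- arrays, and CD80 lies near its background, between 71.9 and 403 units in Cy3.

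The first comparison asked whether the CD26+ and CD26- subsets differ in these genes. CD86 was the member furthest apart: both of its probes read about 2-fold higher in CD26+ than in CD26- DC, and the arrays of the subsets did not overlap. CD80 and CD40 read higher in CD26+ DC by smaller steps in both sheep, CD80 with a wide spread between the sheep, and ICAM1 lay at the same level in both subsets within that spread. No member passed the test. limma's moderated test called 0 of 13264 probes at a Benjamini-Hochberg adjusted p under 0.05, a share of 0.0%, and 746 probes (5.62%) had an unadjusted p under 0.05, among them 1 of the 6 member probes.

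CD86 A_70_P030341 had log2 ratios of subset over total DC of -0.84 and -0.58 on the CD26+ arrays of sheep 30066 and 10081, and of -1.73 and -1.91 on their CD26- arrays. Every CD26+ value was above every CD26- value, and all 4 were below the self-hybridisation value of -0.08. The difference of CD26+ minus CD26- was 1.11 on the log2 scale (SE 0.35, n = 2 sheep, 95% interval 0.17 to 2.05), with 0.90 in sheep 30066 and 1.32 in sheep 10081. This is 2.16-fold, and limma's adjusted p over all probes was 0.857. A difference at least this far from 0 was found at 12.2% of all tested probes.

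CD86 A_70_P030342, which covers another stretch of the transcript, had log2 ratios of -0.73 and -0.11 on the CD26+ arrays of sheep 30066 and 10081, against -1.40 and -1.54 on the CD26- arrays. The order of the arrays by subset was the same as for the first probe. Its difference was 1.06 (SE 0.40, 95% interval -0.01 to 2.12, limma's adjusted p = 0.884), with 0.67 in sheep 30066 and 1.44 in sheep 10081. The log2 ratios of the CD86 probes lay 0.11 to 0.47 apart on single arrays. As a measure of spot error, 32 probes printed on several spots had a median SD of 0.080 within an array.

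The CD40 probes gave nearly the same values as each other, 0.010 to 0.17 apart on single arrays. A_70_P026641 had log2 ratios of 0.55 and 1.05 on the CD26+ arrays of sheep 30066 and 10081, against 0.23 and 0.44 on the CD26- arrays. A_70_P026642 read 0.52 and 1.13 on the CD26+ arrays, against 0.22 and 0.48 on the CD26- arrays. The subsets thus did not overlap, but by little: the lower CD26+ array stood just above the higher CD26- array. The differences were 0.46 (SE 0.38, 95% interval -0.56 to 1.48) and 0.47 (SE 0.40, 95% interval -0.60 to 1.55), and limma's adjusted p was 0.986 for both. Within sheep 30066 they were 0.31 and 0.30, and within sheep 10081 0.61 and 0.65. Leaving out 1 array gave 0.21 to 0.71 and 0.17 to 0.78, lowest without the CD26+ array of sheep 10081.

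CD80 had log2 ratios of 0.90 and 2.05 on the CD26+ arrays of sheep 30066 and 10081, against 0.25 and 1.63 on the CD26- arrays. The subsets overlapped, and the 2 arrays of sheep 10081 were the higher ones. The difference between subsets was 0.54 (SE 0.70, 95% interval -1.33 to 2.41, limma's adjusted p = 0.9996), with 0.65 in sheep 30066 and 0.42 in sheep 10081. Leaving out 1 array gave -0.16 without the CD26- array of sheep 30066, -0.04 without the CD26+ array of sheep 10081, and up to 1.23 otherwise, in a fit without pairing by sheep.

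ICAM1 had log2 ratios of 1.19 and 1.89 on the CD26+ arrays of sheep 30066 and 10081, against 1.36 and 1.85 on the CD26- arrays. The subsets overlapped fully. Their difference was -0.07 (SE 0.44, 95% interval -1.25 to 1.11, limma's adjusted p = 0.9996), an interval that spans more than 2-fold in either direction. Leaving out 1 array moved it between -0.42, without the CD26+ array of sheep 10081, and 0.28, without the CD26+ array of sheep 30066, and it was above 0 without the CD26- array of sheep 10081 as well (0.17).

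**Figure D2:**
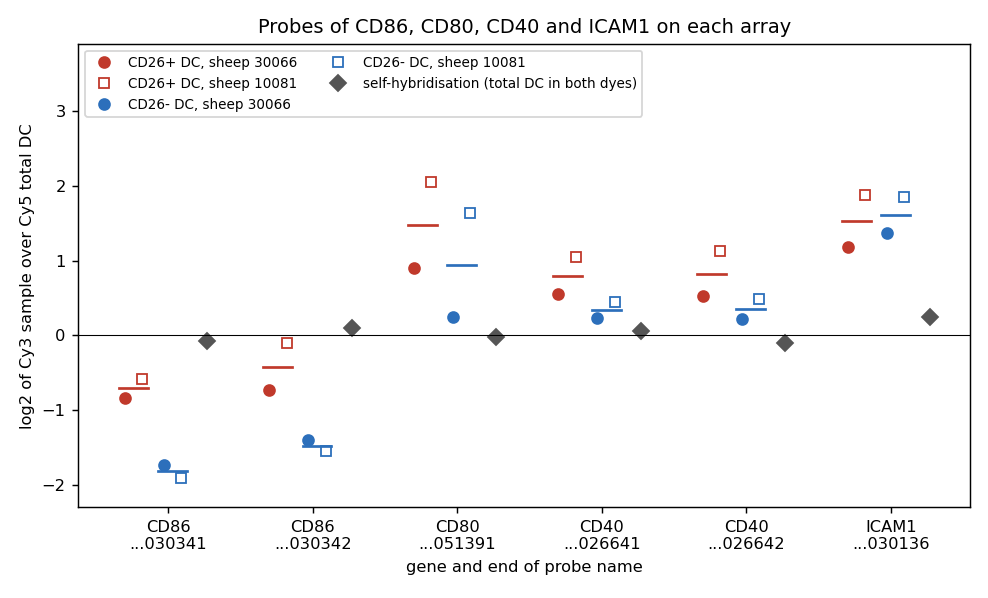
Log2 ratio of Cy3 sample over Cy5 total DC for each probe on each array, with red for CD26+ DC, blue for CD26- DC, grey diamonds for the self-hybridisation, circles for sheep 30066, squares for sheep 10081 and lines for subset means (n = 2). Both CD86 probes lie below 0 with CD26+ above CD26-, ICAM1 lies above 1 on all 4 subset arrays, and CD80 splits by sheep.

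In counts, 4 of the 6 probes (those of CD86 and CD40) had both CD26+ arrays above both CD26- arrays, where 15.0% of all probes did, and 0 ran the other way, where 16.6% of all probes did. Of the 6, 5 were higher in CD26+ DC in both sheep, against 27.6% of all probes, and 0 were at least 2-fold higher in both sheep, against 2.42%. The 4 probes that did not overlap belong to only 2 genes, and probes of 1 gene measure the same RNA.

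The members also differed between the sheep within a subset, where each value rests on 1 array per sheep. CD80 was higher in sheep 10081 than in sheep 30066 by 1.16 on the log2 scale in CD26+ DC and by 1.39 in CD26- DC, which was more than its difference between the subsets. A gap of that size between the sheep was found at 21.8% and 15.1% of all probes. ICAM1 was higher in sheep 10081 by 0.70 in CD26+ and 0.48 in CD26- DC, and the CD40 probes by 0.50 and 0.61 in CD26+ DC and by 0.21 and 0.26 in CD26- DC. CD86 went both ways: its probes were higher in sheep 10081 by 0.25 and 0.62 in CD26+ DC, and differed by -0.18 and -0.14 in CD26- DC. CD3D, a chain of the T cell receptor complex, also read high in sheep 10081, at 3.18 in its CD26+ and 4.11 in its CD26- DC, against 0.10 and 1.41 in sheep 30066. The T and NK cell markers did not all run this way: of 7 with a value on all 5 arrays, 4 were higher in sheep 10081 in both subsets, 2 were lower in both, CD247 among them, and 1 was mixed. The part of T cells in the sheep values of CD80 was not tested.

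CD26+ DC were next compared with total DC by subtracting the value on the self-hybridisation. CD80, ICAM1 and CD40 read higher in CD26+ DC than in total DC in both sheep, and CD86 read lower in both. These were 4 of 6 probes higher in both sheep, where 34.3% of all probes were, and 2 lower, where 38.8% were. limma called 0 of 13204 probes (0.0%), against 1491 (11.3%) at an unadjusted p under 0.05, and none of the 6 members was among those 1491. CD80 stood 1.499 above total DC (SE 0.85, 95% interval -0.79 to 3.79, limma's adjusted p = 0.580), and ICAM1 1.28 above (SE 0.54, 95% interval -0.16 to 2.73, limma's adjusted p = 0.474). The CD40 probes stood at 0.74 (SE 0.47) and 0.93 (SE 0.49). The CD86 probes stood at -0.63 (SE 0.43, 95% interval -1.78 to 0.52) and -0.52 (SE 0.49, 95% interval -1.82 to 0.79), with limma's adjusted p of 0.649 and 0.761. Without the CD26+ array of sheep 30066 the second of these was -0.21, and CD80 ranged from 0.92 to 2.08 when 1 array was left out.

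CD26- DC were set against total DC in the same way. CD86 was the furthest from total DC, about 3-fold lower by both probes in both sheep. ICAM1 read 2.55-fold higher, and CD40 lay close to total DC. Again 4 of 6 probes were higher in both sheep, against 33.8% of all probes, and 2 lower, against 38.2%. limma called 0 of 13204 probes (0.0%), against 1401 (10.6%) at an unadjusted p under 0.05, which included both CD86 probes. The CD86 probes stood at -1.74 (SE 0.43, 95% interval -2.89 to -0.59) and -1.57 (SE 0.49, 95% interval -2.88 to -0.27), with limma's adjusted p of 0.369 and 0.419. When the ratio was tested against 0 without subtracting the self-hybridisation, the first passed at -1.82 (adjusted p = 0.0362), a setting in which 1066 probes passed, and the second missed (adjusted p = 0.0540).

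ICAM1 stood 1.35 above total DC in CD26- cells (SE 0.54, 95% interval -0.09 to 2.80, limma's adjusted p = 0.501), with 1.11 in sheep 30066 and 1.59 in sheep 10081. CD80 stood at 0.96 (SE 0.85, 95% interval -1.33 to 3.25, limma's adjusted p = 0.790), but at 0.27 without the CD26- array of sheep 10081 and at 0.40 when every spot entered the normexp background correction. The CD40 probes stood at 0.28 (SE 0.47) and 0.46 (SE 0.49), and at -0.11 and 0.07 with median centring in place of loess, so the direction of the first depends on that choice. With the arrays scaled to the same spread, ICAM1 stood at 0.46 in CD26+ and 0.53 in CD26- DC. Log2 ratios had an SD of 1.18 to 1.42 on the subset arrays, against 0.29 on the self-hybridisation, so this scaling stretches the self-hybridisation values.

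At least 2-fold above total DC in both sheep were 0 of the 6 probes in CD26+ DC (9.89% of all probes) and 1 in CD26- DC, that of ICAM1 (10.1%). At least 2-fold below in both sheep were 0 in CD26+ DC (8.79%) and 2 in CD26- DC, those of CD86 (7.51%). Both subsets were set against the same self-hybridisation array and the same Cy5 RNA, so their values against total DC share that baseline. In order of level, CD86 stood highest in total DC, then in CD26+ and then in CD26- DC, and the arrays of neighbouring groups did not overlap for either probe. Total DC is 1 array here, and A_70_P030342 stood only -0.21 from it on the CD26+ array of sheep 10081. Of all probes, 15.0% had both CD26+ arrays above both CD26- arrays. Below total DC in both sheep were 38.8% of all probes in CD26+ and 38.2% in CD26- DC. The share of all probes with the whole order was not counted. CD40 and CD80 stood highest in CD26+ DC, then in CD26- and then in total DC, with the subsets overlapping for CD80. ICAM1 was above total DC in both subsets, which did not differ from each other beyond their spread.

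**Figure D3:**
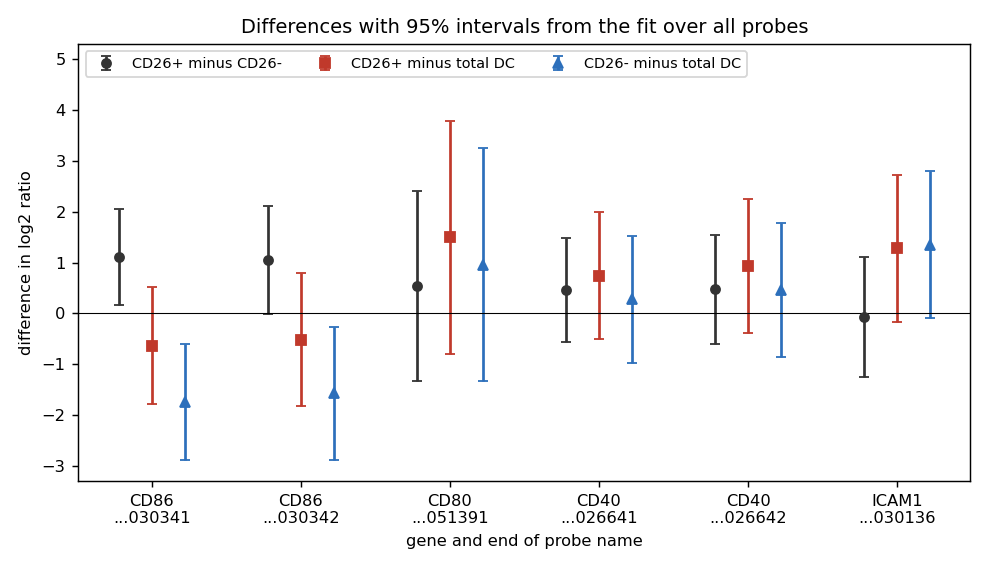
Difference in log2 ratio for each probe in the 3 comparisons, with bars for the 95% interval of limma's fit: circles for CD26+ minus CD26-, squares for CD26+ minus total DC and triangles for CD26- minus total DC. The intervals that leave out 0 are those of CD86, at 1.11 between the subsets for 1 probe and at -1.74 and -1.57 for CD26- against total DC.

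Other genes of the same pathways were taken from lists, with the brightest probe of each gene. Most probes could not be named (13588 of 15008), so a listed gene that was not found may still be on the array. Of 22 costimulatory molecules of antigen-presenting cells, 4 were among the named probes, all tested: the B7 ligands, CD40 and SLAMF1. SLAMF1, a self-binding receptor of T cells and DC, ran opposite to the others at -1.55 (SE 0.86), with -0.73 in sheep 30066 and -2.36 in sheep 10081, and it ranged from -2.68 without the CD26- array of sheep 30066 to -0.41 without that of sheep 10081. The median of these 4 genes was 0.50 for CD26+ minus CD26-, against -0.01 over the 695 named genes tested, and 0 passed the test. All but SLAMF1 are members of the set described here, so this median restates their values and is no separate support. As a background for the lists, 27.2% of 684 named genes with values in both sheep were higher in CD26+ DC in both and 29.2% lower, with 2.05% at least 2-fold higher and 3.95% at least 2-fold lower.

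Of 14 partners on T cells, 5 were tested and 0 passed, with a median of 0.09. The CD28 probe stood at 0.09 and that of CTLA4 at 0.10, but a dimmer CD28 probe stood at 0.80. CD40LG, the ligand of CD40, stood at -0.91 (SE 0.71), which came from 1 array: it read 1.76 in CD26- DC of sheep 10081 and -0.11 to -0.07 on the other subset arrays. Without that array its difference was 0.02. ITGAL, the alpha chain of the ICAM1 receptor, stood at 0.36, and ITGB2, its beta chain, at -0.85 (SE 0.75). ITGB2 was lower in CD26+ DC in both sheep, by -1.38 and -0.32, but stood at 0.07 without the CD26+ array of sheep 30066.

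Among 34 adhesion molecules and integrins, 13 were among the named probes and 10 were tested, ICAM1 among them, while ITGAM and the selectins SELP and SELE were left out as dim. Their median was -0.13, and 0 passed. In both sheep 2 were higher and 5 lower in CD26+ DC, against 27.2% and 29.2% of named genes. ITGA4, a chain of the receptor for VCAM1, resembled ICAM1 in standing above total DC in both subsets, at 1.92 in CD26+ and 1.98 in CD26- DC. ITGB1, the beta chain that pairs with ITGA4, stood at -1.45 and -1.67. F11R, a junction molecule, had the largest value on this list, 1.44 (SE 1.03), but it was well above background on only 2 arrays and differed by 2.96 in sheep 10081 and -0.07 in sheep 30066. Without the CD26+ array of sheep 10081 it was 0.0034.

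Of 21 genes of CD40 and NF-kB signalling, 5 were tested, 0 were higher and 3 were lower in CD26+ DC in both sheep, where 29.2% of named genes were lower, and the median was -0.82. CD40LG, whose difference came from 1 array, is among the 5. BCL2L1, a survival factor induced by CD40 in antigen-presenting cells, was the 1 gene at least 2-fold lower in both sheep, at -2.04 (SE 0.34), with -1.91 in sheep 30066 and -2.17 in sheep 10081. TRAF3, an adaptor that binds the tail of CD40, stood at -0.82, with -0.25 in sheep 30066 and -1.38 in sheep 10081. The inhibitor NFKBIA stood at -0.52, with -0.89 in sheep 30066 and -0.15 in sheep 10081. IKBKB, a kinase of the NF-kB pathway, went in opposite directions, with -1.82 in sheep 30066 and 0.76 in sheep 10081. None of these differences passed the test.

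**Figure D4:**
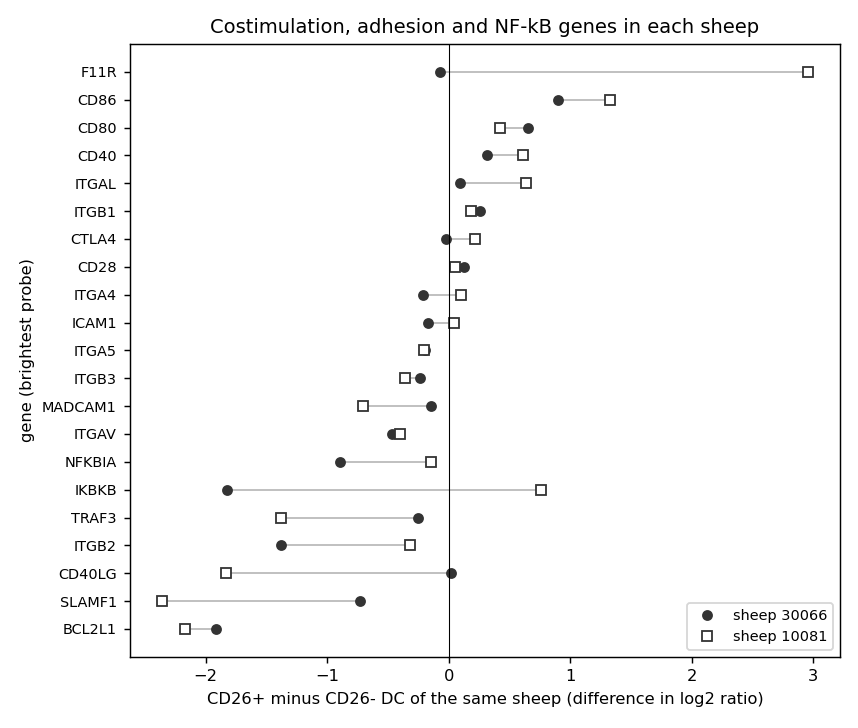
Difference in log2 ratio of CD26+ minus CD26- DC within each sheep for the tested costimulation, adhesion and NF-kB genes (rows, brightest probe), with filled circles for sheep 30066 and open squares for sheep 10081. CD86 lies at 0.90 and 1.32, ICAM1 on both sides of 0, and BCL2L1 at -1.91 and -2.17.

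Marker lists of other cells were read beside these values. Of 12 T and NK cell markers, 8 were tested and 6 were well above background in Cy3 on all arrays. Their summed raw Cy3 signal was 19843 and 21093 units in CD26+ DC, 6539.6 and 13519 units in CD26- DC and 14317 units in total DC on the self-hybridisation. Such sums were neither background-corrected nor normalised, so they do not compare the arrays on 1 scale. These markers ran in both directions between the subsets, with a median of 0.45 for CD26+ minus CD26-. In both sheep 4 were higher and 2 lower in CD26+ DC, against 27.2% and 29.2% of named genes. CD247, a signalling chain of the T cell receptor complex, stood at 1.36 (SE 0.55), CD5 at 1.57 and CD3D at -1.12. GNLY, a granule protein of killer cells, stood at 3.24 without a value for the CD26- array of sheep 10081, and its 3 other probes at 0.78 to 1.11. The raw GNLY signal on that array still entered the sum. CD4 was well above background on only 2 arrays. Of 7 markers of monocytes and macrophages, 3 were tested. All 3 were lower in CD26+ DC in both sheep, against 29.2% of named genes, and their median was -1.07. Their raw sum was 8137.6 and 3108 units in CD26+ DC, 12982 and 8228 units in CD26- DC and 42309 units in total DC. CD14, the lipopolysaccharide coreceptor, stood at -1.09 (SE 0.60) and FABP5, a fatty acid carrier, at -1.07 (SE 0.69). CHI3L1 stood at -0.79 (SE 0.39) and was well above background in Cy3 on 4 arrays. Leaving out 1 array moved CD14 between -1.83 (without the CD26- array of sheep 30066) and -0.35 (without that of sheep 10081). FABP5 moved between -1.78 (without the CD26+ array of sheep 30066) and -0.37 (without that of sheep 10081). None of the 6 B cell markers was among the named probes, and of 7 endothelial and epithelial markers only KDR was tested, at 0.05. The part of these cell types in the CD86, CD40 and CD80 values was not tested. In such bulk RNA, fewer cells of a type and less RNA per cell cannot be told apart.

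Of the DC markers, DYA, a class II chain found in ruminants, stood at 5.27 for CD26+ minus CD26- (SE 1.004) and CD1, of the same family as CD1b, at 1.78 (SE 0.38), at least 2-fold higher in both sheep but short of the test. Leaving out 1 array, DYA ranged from 4.22 without the CD26+ array of sheep 10081 to 6.32 without that of sheep 30066. The other 2 were lower in both sheep: CD1B, a marker of the sort, stood at -0.31, and CD1D, another lipid-presenting molecule, at -1.18.

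Likeness to other genes was measured as the root mean square difference of log2 ratios over the 5 arrays, against 681 other named genes with a value on every array. Among the genes near CD86 were SRSF3 (0.38) and the gene the file calls PPAR ALPHA (0.39). CD80 was closest to SQSTM1 (0.30), IGF2 (0.31) and IRF1 (0.42). CD40 was closest to EIF3A (0.090), CAPN1 (0.13) and PABPC1 (0.18), and ICAM1 to DDOST (0.27), CTSB (0.30) and CD3E (0.34). The members themselves were not closest to each other. CD80 and ICAM1 lay 0.54 apart, with ICAM1 at rank 9 from CD80 and CD80 at rank 15 from ICAM1 among the 681 genes. CD40 lay 0.72 from CD80 (rank 31 from CD80, 295 from CD40). It lay 0.94 from ICAM1 (rank 82 from ICAM1, 432 from CD40). CD86 lay 1.67 to 2.61 from the other 3, at ranks 491 to 631 from CD86.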

How the data were processed

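Per the file headers, Feature Extraction 9.5.3.1 read each deposited spot intensity, linear and not normalised, with its local background. Their deposited log10 ratio is of processed Cy5 over Cy3 signals. A deposited table of log2 ratio per spot equalled its negative in log2 units within 5e-10, so it is Cy3 over Cy5, with column medians of -0.068 to 0.015; any further centring is not given in the sources used here. No dyes were swapped. Flags per spot (score 0 or 1) are the scanner's, per the file headers.

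Mean signals were corrected by normexp (offset 50), leaving out of its fit the 0 to 9 spots per array with a local background over 5 times the median, and normalised by loess, with the 536 control spots at weight 0 (limma 3.58.1, R 4.3.3). Control and outlier spots (49 to 157 per array) were left out. A probe was tested where at least 2 of the 5 arrays had it well above background in Cy3 (13264 of 15008). Genes were named from the files and a RefSeq table (assembly ARS-UI_Ramb_v3.0, names only), which gave 1420 probes a name; a few names come from the probe descriptions.

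The model held 3 group means over the 5 arrays, fitted with lmFit and eBayes (degrees of freedom: 2 residual, 2.36 prior). A call needs a Benjamini-Hochberg adjusted p below 0.05. Intervals are 95%. Both subsets came from each animal, which pairs them; the residuals of same-sheep arrays about their group means had a correlation of 0.33. The script was tested on simulated data.

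All 6 member probes are named. From each list, the genes named are those 2-fold or more apart, and alike in direction, in each sheep, or else the 2 furthest from 0; others named with a value were picked afterwards for their role. The members, lists and processing were chosen with earlier results of these data known. A gene that the likeness measure ranked near CD86 is not reported here.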

Additional observations from a re-analysis of the deposited data

Results flagged for a closer look

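ICAM1 had opposite signs in the sheep: CD26+ minus CD26- DC was -0.17 in sheep 30066 and 0.04 in sheep 10081, on the log2 scale with 1 array per subset in each. The value in sheep 10081 is smaller than the median SD of replicate spots within an array (0.080), so it shows no direction. The difference between the sheep was not tested, and both values are smaller than the gap of ICAM1 between the sheep within a subset (0.70 in CD26+ and 0.48 in CD26- DC).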

How the results depend on the processing

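Of the recomputed member differences, 78 could not move, since the alternative left the estimate as it was. Among the others, 160 kept their direction and their side of the threshold, 7 reversed and 1 newly passed. ICAM1 between the subsets turned from -0.07 to 0.0021 when every spot entered the normexp fit and to 0.0043 with the scanner's processed signals, and lay between -0.42 and 0.28 leaving out 1 array. CD80 between the subsets lay between -0.16 and 1.23 leaving out 1 array, in a fit without pairing by sheep. Such a fit compares unequal sets of sheep, and CD80 differed more between the sheep than between the subsets. Within sheep 30066 CD80 differed by 0.65 and within sheep 10081 by 0.42. With the sheep as a replicate block it stood at 0.54 (interval -0.38 to 1.46, limma's adjusted p = 0.673), against an interval of -1.33 to 2.41 in the main fit. CD40 A_70_P026641 in CD26- against total DC was -0.11 with median centring. Tested against 0 without the self-hybridisation, CD86 A_70_P030341 passed in CD26- DC (-1.82), and the calls were 1166 probes for CD26+ and 1066 for CD26- DC in place of 0; that test leaves out the spread of the baseline array. All other settings gave 0 calls. With the sheep as a replicate block, calls between the subsets stayed at 0, with 1126 probes at an unadjusted p under 0.05 in place of 746, and limma's adjusted p was 0.586 and 0.596 for the CD86 probes. Against total DC the correlation within a sheep could not be estimated from 5 arrays, so it was set to 0.33, a choice made after seeing the data, and the calls stayed at 0. Leaving out 1 array gave -1.84 to 0.024 for CD40LG, -1.77 to 0.069 for ITGB2 and -0.11 to 0.22 for KDR. CD80 is limited by signal, at 2.14 to 2.69 times the local background in Cy5.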
